A study of Mus musculus with 6 samples.

Results

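The genes described here are the potassium channel family on a mouse expression array, taken as every gene whose symbol begins with Kcn in the array annotation and represented by the brightest of its probe sets, a probe set being the group of array probes that reads 1 transcript. The rule found 84 of the 18193 genes measured, read by 167 probe sets. The arrays compared the proximal colon with the distal colon of untreated female C57BL/6J mice, with 3 libraries labelled proximal and 3 labelled distal. Per the design text, 3 animals were used as biological replicates and gave both regions, and no genotype, age or agent is given. The tissue is named in the labels only as colon, and 9 of 9 measured markers of colonic epithelium averaged above 6.54, the lower quartile of the signals of all genes. Only 24.8% of all genes averaged below that level. Every measured marker of smooth muscle, enteric neurons, enteric glia and endothelium also averaged above it, so this does not set epithelium apart. The family was chosen by name, and its classes hold 13 voltage-gated pore subunits of the Kcna to Kcnd type, 9 silent modifiers, 6 eag and erg type subunits, 3 KCNQ subunits, 12 auxiliary subunits of voltage-gated channels, 8 calcium-activated or Slo type pore subunits, 3 auxiliary subunits of the large conductance channel, 15 inward rectifiers, 12 K2P leak channels and 3 noncoding transcripts named after channel genes.

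Potassium channels let potassium leave the cell and so hold the membrane voltage negative. In the colonic epithelium this voltage drives chloride secretion through the apical membrane, and channels on the luminal side secrete potassium into the stool, while in the muscle, nerves and pacemaker cells of the wall they set excitability. Pore subunits fall into voltage-gated, calcium-activated, inward rectifying and K2P leak classes, and auxiliary subunits change how a pore opens or where it sits.

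The profiles of 2 libraries went against their labels, and this bears on every value below. Over the 18193 genes the profile labelled proximal 1 had correlations of r = 0.993 and 0.990 with distal 1 and 2, and at 0.977 and 0.975 with proximal 2 and 3. The one labelled distal 3 had r = 0.996 and 0.995 with proximal 2 and 3, and at 0.974 and 0.976 with distal 1 and 2. These are descriptions across genes within the same arrays. Results for the family are therefore given for all 6 libraries as labelled and for the 4 libraries left without proximal 1 and distal 3. Differences of single genes are those of the 4 libraries unless the text gives them as labelled. The smaller set was chosen with the profiles known, which makes its p-values too favourable, and no library was given another label. Libraries are named below by their labels. All values are the authors' log2 signals, in which 1 unit is a 2-fold difference, and differences are distal minus proximal.

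With all 6 libraries under their labels, no potassium channel gene passed the comparison of the regions. By limma, 0 of 84 members passed at an adjusted p of 0.05, where 0 of 18193 genes, 0%, did so. At an unadjusted p of 0.05 there were 0 of 84 members, against 554 genes or 3.05% of the table (0.901% distal-high and 2.14% proximal-high). The members' differences ran from -0.74 for Kcnk2 to 0.75 for Kcnq3, with a median of 0.01, against a median of -0.02 over all genes. The smallest unadjusted p was that of Kcne1, an auxiliary subunit of Kcnq1 known from heart and inner ear, with 5.14, 5.15 and 4.83 in proximal 1, 2 and 3 and 5.80, 5.22 and 5.40 in distal 1, 2 and 3. Its groups did not overlap, but it differed by only 0.43 (SE 0.18, limma unadjusted p = 0.0517, adjusted p = 0.824), and its signal lay low on the array. The other probe set of Kcne1 hardly differed as labelled (-0.03). In the 4 libraries that probe set had -0.23 and the brightest 0.52. Next came Kcnq3 (0.75, SE 0.37), Kcnd3 (0.45, SE 0.23), Kcns1 (0.30, SE 0.15) and Kcnu1, a Slo family channel known from sperm (0.24, SE 0.12), each with a limma adjusted p of 0.824. The labelled groups did not overlap for 3 members, which is 3.57% of the family against 7.33% of all genes. By direction, 1 member was higher in distal libraries, where 2.73% of all genes were, and 2 were higher in proximal libraries, where 4.6% were. Besides Kcne1 these were Kcnab3, a beta subunit (-0.20, SE 0.11), and Kcnj12, an inward rectifier (-0.18, SE 0.11), named here after their values were seen.

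In the 4 libraries, 15 of 84 members passed the test, 9 higher in the distal pair and 6 higher in the proximal pair. This is 17.9% of the family, near the 19.2% of all genes that passed, and by direction 10.7% against 7.71% for distal and 7.14% against 11.5% for proximal.  The median difference of the members was 0.03 and that of all genes -0.05. In the distal pair Kcnk15, Kcnq3, Kcnq1ot1, Kcnk10, Kcnf1, Kcnd3, Kcna2, Kcnn4 and Kcns1 were higher, and in the proximal pair Kcnk2, Kcnip1, Kcna5, Kcnh1, Kcnj8 and Kcnk7. Their SE ran from 0.11 to 0.24, and 6 of the 15 differed by 2-fold or more, 7.14% of the family against 6.28% of all genes. With 1 more library left out, limma called 0 members without proximal 2, 0 without proximal 3, 3 without distal 1 (Kcna5, Kcnq1ot1 and Kcnq3) and 1 without distal 2 (Kcnq1ot1), against 165, 146, 1633 and 405 genes of the table. On the brightest probe set the other 69 members did not pass, with differences from -0.40 to 0.65. With each probe set tested on its own, 6 of these passed on another probe set. In that fit 21 members passed on any probe set, against 5381 genes of the table. The 6 were Kcnk1, Kcnma1 and Kcnmb1, described below, and Kcna1 (0.49), Kcng1 (0.81) and Kcnq5 (0.71). For these last, limma adjusted p was 0.0438, 0.0109 and 0.0384 over all probe sets. In these bulk samples fewer cells of a type and less RNA per cell cannot be told apart.

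**Figure D1:**
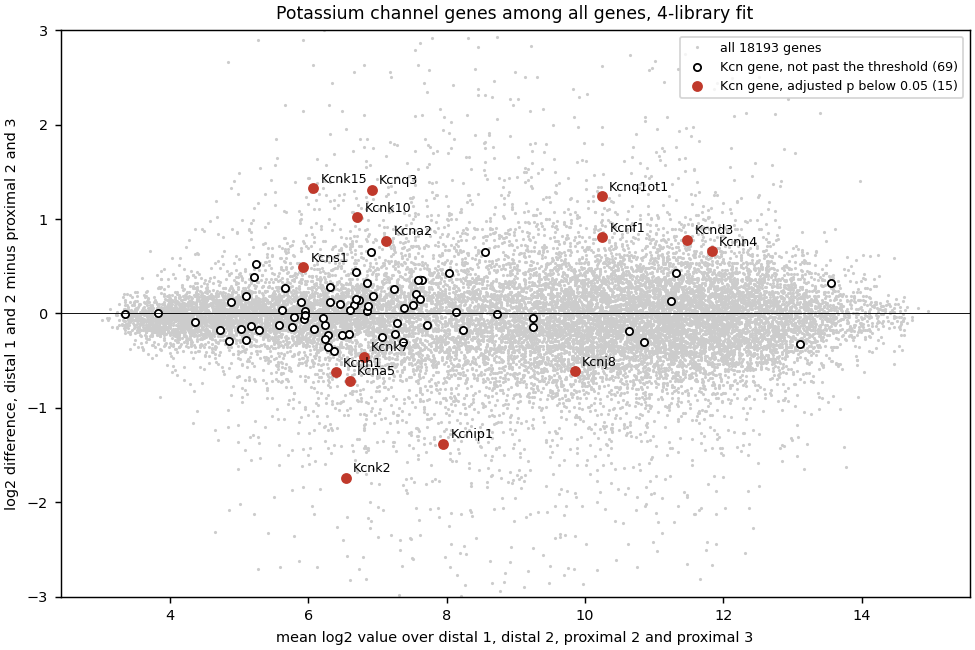
Log2 difference (vertical axis, distal 1 and 2 minus proximal 2 and 3) against the mean log2 value of the same 4 libraries (horizontal axis) for all genes (grey dots) and the 84 potassium channel genes (circles, filled red where the limma adjusted p was below 0.05). The 15 red genes lie on both sides of 0, from -1.74 to 1.33, and 122 genes of the table lie outside the plotted range of 3.

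K2P channels are leak channels, open at rest, and on the brightest probe sets in the 4 libraries they held the largest difference of the family in each direction. Of 12 measured, 2 passed as higher in the distal pair, 2 as higher in the proximal pair and 8 did not pass. Of all genes, 7.71% passed as higher in the distal pair and 11.5% in the proximal pair. Counts by class were not tested against these shares. Kcnk2 and Kcnk10 encode related channels opened by membrane stretch and by lipids. Kcnk2 measured 6.04, 7.55 and 7.27 in proximal 1, 2 and 3 and 5.45, 5.89 and 7.30 in distal 1, 2 and 3. Proximal 1 lay with distal 1 and 2, and distal 3 with proximal 2 and 3, so the labelled groups overlapped (-0.74, SE 0.58, limma adjusted p = 0.824). In the 4 libraries Kcnk2 was 3.34-fold higher in the proximal pair (-1.74, SE 0.19, limma adjusted p = 0.00506). Kcnk10 ran the other way, with 7.44, 6.09 and 6.31 in proximal 1, 2 and 3 and 7.32, 7.12 and 6.40 in distal 1, 2 and 3. It was 2.03-fold higher in the distal pair (1.02, SE 0.14, limma adjusted p = 0.00913), and as labelled differed by 0.33 (SE 0.41). Its second probe set had the same direction and did not pass (0.36). Kcnk4, the third stretch-gated channel of this group, stayed between 5.44 and 5.70 in all 6 libraries and did not pass (-0.12, SE 0.12).

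Kcnk15, a K2P subunit related to the acid-sensitive channel of Kcnk3, measured 6.59, 5.48 and 5.33 in proximal 1, 2 and 3 and 6.99, 6.49 and 5.43 in distal 1, 2 and 3. Again proximal 1 was high with distal 1 and 2, and distal 3 was low with proximal 2 and 3. The distal pair was 2.52-fold higher (1.33, SE 0.19, limma adjusted p = 0.0106), and as labelled the difference was 0.50 (SE 0.49). The lower pair of Kcnk15, of Kcnk10 and of Kcnk2 lay below 6.54, a range in which array background can mask still lower levels. These members were also picked because they passed, which can make a difference too large, so the sizes are uncertain. Kcnk7, which encodes a subunit with no known current of its own, measured 6.88, 7.06 and 7.01 in proximal 1, 2 and 3 and 6.51, 6.64 and 6.97 in distal 1, 2 and 3. The proximal pair was higher by a small step (-0.46, SE 0.11, limma adjusted p = 0.0434), which no longer passed after quantile normalization (-0.42), after median centring (-0.37) or with a trended and robust prior. Kcnk1, a weakly conducting K2P channel widespread in epithelia, measured 13.31, 13.25 and 13.28 in proximal 1, 2 and 3 and 13.04, 12.86 and 13.33 in distal 1, 2 and 3. Its brightest probe set did not pass (-0.32, SE 0.12, limma adjusted p = 0.123), while its second was lower in the distal pair (-0.83, limma adjusted p = 0.0137 over all probe sets). Kcnk1 passed as the mean of its probe sets (-0.57) and with a trended and robust prior. Kcnk6 (-0.19, SE 0.26), the alkali-activated Kcnk5 (-0.30, SE 0.13) and the acid-sensitive Kcnk3 (-0.14, SE 0.12) did not pass.

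Calcium-activated channels serve secretion in the epithelium and relaxation in muscle. Of 8 pore subunits of the calcium-activated or Slo type 1 passed, where 19.2% of all genes did. Of 3 auxiliary subunits of the large conductance channel 0 passed. Their smallest limma unadjusted p in the 4 libraries was 0.0312 (0.39, SE 0.13), and 35% of all genes lay below 0.05 there. As labelled 0 of the 3 lay below 0.05, as did 0 of all 84 members and 3.05% of all genes. Kcnn4, the intermediate conductance channel that carries potassium out of colonic epithelial cells when calcium rises, measured 12.05, 11.48 and 11.52 in proximal 1, 2 and 3 and 12.22, 12.09 and 11.52 in distal 1, 2 and 3. Proximal 1 again lay with distal 1 and 2, and distal 3 at the level of proximal 2 and 3. The distal pair was 1.57-fold higher (0.66, SE 0.11, limma adjusted p = 0.0171), against 0.26 (SE 0.24) as labelled, and its second probe set also passed (0.47, limma adjusted p = 0.0362 over all probe sets). The small conductance channels Kcnn1, Kcnn2 and Kcnn3 did not pass, with differences of 0.04, -0.22 and 0.03.

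Kcnma1, the pore of the large conductance channel, which secretes potassium across the apical membrane of the colon and relaxes smooth muscle, differed between its probe sets. The brightest measured 11.71, 11.20 and 11.00 in proximal 1, 2 and 3 and 11.56, 11.50 and 11.29 in distal 1, 2 and 3. It was higher in each of distal 1 and 2 than in proximal 2 and 3 but missed the threshold (0.43, SE 0.12, limma adjusted p = 0.0639). After quantile normalization, after median centring, with a trended and robust prior, with dim genes left out, or as the mean of its probe sets (0.78), it passed. Of its other 4 probe sets, 2 were higher in the distal pair by 1.48 and 1.72 (limma adjusted p = 0.00484 and 0.00165 over all probe sets), and 2 did not pass (0.23 and 0.05). The probe set with 1.72 measured 7.75, 6.67 and 6.52 in proximal 1, 2 and 3 and 8.38, 8.24 and 7.25 in distal 1, 2 and 3. Which transcripts the separate probe sets read was not tested. Kcnmb1, the smooth muscle subunit of this channel, did not pass on its brightest probe set (0.35, SE 0.15), while the other did (0.47, limma adjusted p = 0.0347 over all probe sets). Kcnmb1 lies within the span of Kcnip1 in the RefSeq table of GRCm38.p6, and which strand each probe set reads was not checked here.

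Voltage-gated channels of nerve and muscle passed in both directions. Of 13 pore subunits of the Kcna to Kcnd type 2 were higher in the distal pair and 1 in the proximal pair. The shares of all genes were 7.71% and 11.5%. Kcnd3, a fast A-type channel, measured 11.65, 11.19 and 11.00 in proximal 1, 2 and 3 and 11.69, 12.06 and 11.44 in distal 1, 2 and 3. It was 1.72-fold higher in the distal pair (0.78, SE 0.16, limma adjusted p = 0.0303), and all 4 of its probe sets had that direction. The mean of its probe sets no longer passed (0.43). Kcna2, a Shaker type channel of axons, measured 6.93, 6.67 and 6.83 in proximal 1, 2 and 3 and 7.34, 7.69 and 6.77 in distal 1, 2 and 3, a difference of 0.77 (SE 0.16, limma adjusted p = 0.0286). Here proximal 1 lay nearer proximal 2 and 3, and 1 further probe set of 4 passed (0.68, limma adjusted p = 0.0429 over all probe sets), 1 ran the other way, and their mean did not pass (0.35). Kcna5, another Shaker type channel, measured 6.37, 6.97 and 6.94 in proximal 1, 2 and 3 and 6.29, 6.19 and 6.64 in distal 1, 2 and 3. It was 1.64-fold higher in the proximal pair (-0.71, SE 0.11, limma adjusted p = 0.0123).

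Kcnip1 encodes a calcium-binding subunit that raises the current of A-type channels such as that of Kcnd3. It measured 7.31, 8.92 and 8.36 in proximal 1, 2 and 3 and 7.14, 7.39 and 8.36 in distal 1, 2 and 3. The proximal pair was 2.59-fold higher (-1.38, SE 0.21, limma adjusted p = 0.0138), so this subunit and Kcnd3 passed in opposite directions. A second probe set had -1.70 (limma adjusted p = 0.00870 over all probe sets), and the other 2 did not pass (-0.05 and -0.26). Kcnip4, a related subunit, did not pass (0.43, SE 0.20). Dpp6 and Dpp10, membrane partners of the same channels, also missed the threshold at 0.48 (SE 0.14) and -0.51 (SE 0.13).

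Kcnq3 forms, with other KCNQ subunits, the neuronal current that closes on muscarinic stimulation. It measured 6.94, 6.22 and 6.30 in proximal 1, 2 and 3 and 7.22, 7.93 and 6.57 in distal 1, 2 and 3. The distal pair was 2.49-fold higher (1.31, SE 0.24, limma adjusted p = 0.0217), but distal 1 and 2 lay 0.71 apart, and a dimmer probe set ran the other way (-0.44). With the mean of both probe sets it did not pass (0.44). Kcnf1 and Kcns1 encode silent subunits that give no current alone and modify other voltage-gated channels. Kcnf1 measured 10.73, 9.92 and 9.77 in proximal 1, 2 and 3 and 10.46, 10.84 and 10.08 in distal 1, 2 and 3, which is 1.75-fold higher in the distal pair (0.81, SE 0.16, limma adjusted p = 0.0276). Kcns1 measured 5.85, 5.75 and 5.62 in proximal 1, 2 and 3 and 6.12, 6.23 and 5.76 in distal 1, 2 and 3, a low signal with a difference of 0.49 (SE 0.11, limma adjusted p = 0.0407) that did not pass with a trended and robust prior. Kcnh1, an eag type channel, measured 5.98, 6.59 and 6.83 in proximal 1, 2 and 3 and 6.13, 6.04 and 6.70 in distal 1, 2 and 3. Proximal 1 lay with distal 1 and 2, and the proximal pair was 1.54-fold higher (-0.62, SE 0.13, limma adjusted p = 0.0294). The erg channel Kcnh2 did not pass (-0.01, SE 0.13), and its sign turned after quantile normalization and median centring (0.08 in both).

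The channel that Kcnq1 and Kcne3 form on the basolateral side of crypt cells, where it drives chloride secretion by cyclic AMP, showed no passing subunit. Kcnq1 measured 11.39, 11.13 and 11.23 in proximal 1, 2 and 3 and 11.21, 11.40 and 11.33 in distal 1, 2 and 3. Its groups overlapped in every comparison, and the difference was 0.13 (SE 0.12, limma adjusted p = 0.525) in the 4 libraries and 0.06 (SE 0.11) as labelled. Kcne3 measured 13.64, 13.38 and 13.41 in proximal 1, 2 and 3 and 13.80, 13.63 and 13.48 in distal 1, 2 and 3. It missed the threshold (0.32, SE 0.11, limma adjusted p = 0.116) and passed with a trended and robust prior. Kcne2, the partner of Kcnq1 in gastric acid secretion, ranged from 5.19 in distal 3 to 6.89 in proximal 1, and did not pass (0.12, SE 0.24).

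Kcnq1ot1, a long noncoding transcript that lies within the span of Kcnq1 and is known for imprinted silencing of neighbouring genes, had the smallest adjusted p of the family. It measured 10.32, 9.62 and 9.63 in proximal 1, 2 and 3 and 10.90, 10.82 and 9.65 in distal 1, 2 and 3. The distal pair was 2.35-fold higher (1.24, SE 0.11, limma adjusted p = 0.00264), with proximal 1 between the pairs and distal 3 at the proximal level. All 6 of its probe sets had this direction, and 5 passed over all probe sets, with differences up to 1.94. As labelled the difference was 0.60 (SE 0.38). It is no channel, and it belongs to the set only by its symbol. The overlapping gene Kcnq1 did not pass, and which strand each probe set reads was not checked here.

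Inward rectifiers pass potassium inward more readily than outward, and the ATP-sensitive ones couple voltage to metabolism. Of 15 measured, 1 was higher in the proximal pair, where 11.5% of all genes were, and 14 did not pass. The one that passed was Kcnj8, the pore of the ATP-sensitive channel of pericytes, which are contractile cells around small vessels, and of vascular smooth muscle. It measured 9.61, 10.23 and 10.09 in proximal 1, 2 and 3 and 9.51, 9.58 and 10.39 in distal 1, 2 and 3. Proximal 1 was low with distal 1 and 2, and distal 3 was the highest. The proximal pair was 1.53-fold higher (-0.61, SE 0.11, limma adjusted p = 0.0217), and as labelled the difference was -0.15 (SE 0.28, limma adjusted p = 0.889). Abcc9, the regulatory subunit of the same channel, measured 10.87, 10.87 and 10.62 in proximal 1, 2 and 3 and 10.76, 10.95 and 10.93 in distal 1, 2 and 3 and did not pass (0.11, SE 0.14). Of 7 measured pericyte markers Kcnj8 alone passed by limma in the 4 libraries, and the others, among them Rgs5 (-0.29, SE 0.11) and Pdgfrb (0.04, SE 0.11), did not. The median difference of the list, Kcnj8 included, was -0.25, and its mean log2 value ran from 9.58 to 9.76 in proximal and from 9.46 to 9.84 in distal libraries. All 4 endothelial markers had a lower mean in the distal pair, with a median difference of -0.32, and Emcn passed (-0.65, SE 0.16, limma adjusted p = 0.0483). The part of vessel cells in the Kcnj8 difference was not tested.

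Kcnj11, the pore of the ATP-sensitive channel of pancreatic islets, did not pass (0.02, SE 0.25). Proximal 1 and distal 1 carried high levels of pancreatic genes, with a mean log2 value over 6 measured markers of 12.10 and 12.27 against 7.31 to 7.87 in the other 4 libraries, and Kcnj11 measured 8.18 and 8.51 there against 7.78 to 8.33. Kcnj16, an inward rectifier of kidney and stomach epithelia, did not pass (-0.28, SE 0.11). Its second probe set stood apart in proximal 1 with 7.27, against 4.49 to 4.83 in the other 5 libraries, distal 1 among them. The epithelial rectifiers Kcnj13 (0.28, SE 0.20) and Kcnj15 (0.27, SE 0.15) did not pass either.

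**Figure D2:**
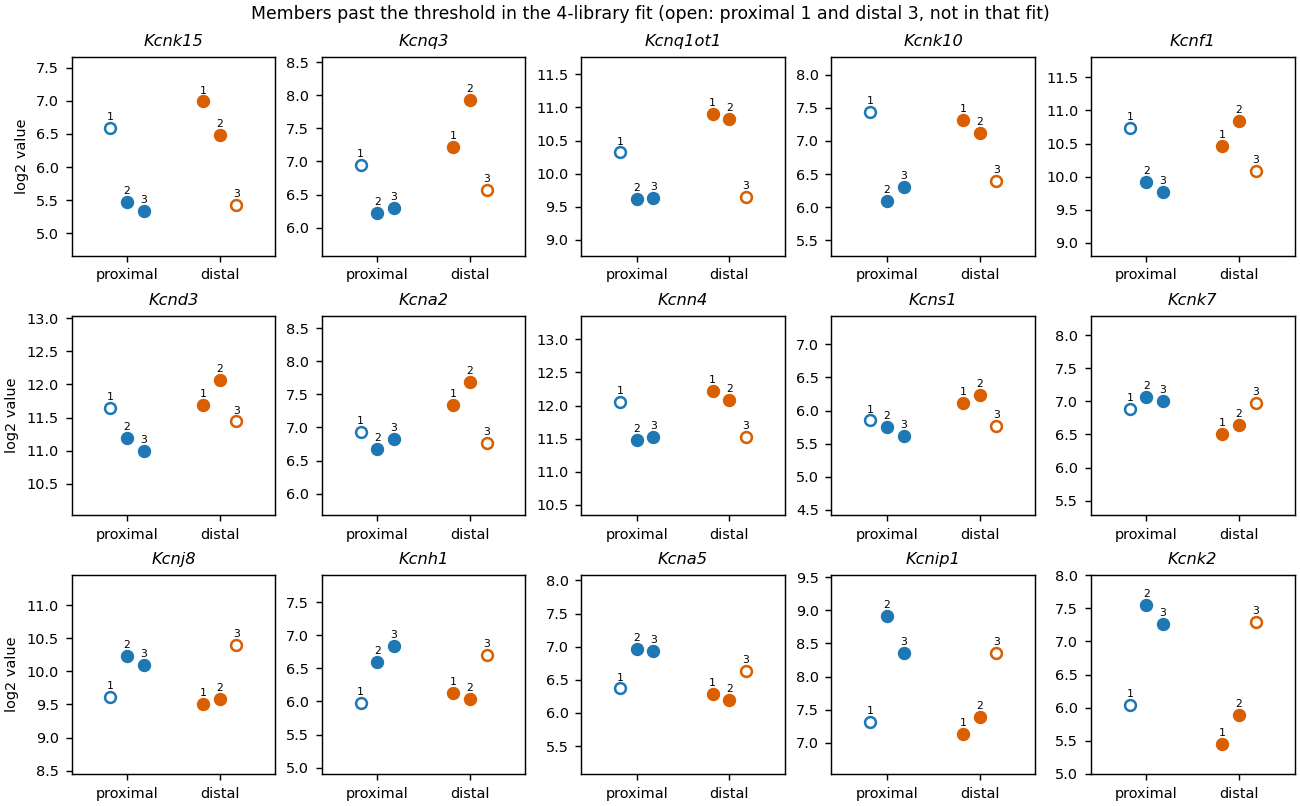
Log2 value of the 15 members that passed in the 4-library fit, for the 3 libraries labelled proximal (blue) and the 3 labelled distal (orange), with the library number beside each point. Open circles are proximal 1 and distal 3, which were not in that fit. Each panel spans the same range of 3 log2 units, and distal 3 lies nearer the proximal pair in all 15 panels.

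Where the libraries left out of the fit lay follows in part from their choice, since their whole profiles went against their labels, and is given as a description. Among the 15 members that passed, the value of proximal 1 was closer to the distal pair in 12, and that of distal 3 was closer to the proximal pair in 15. Among all genes that passed, these shares were 75.4% and 90.1%. The 3 members for which proximal 1 lay nearer the proximal pair were Kcna2, Kcns1 and Kcnk7. Over all 84 members the shares were 58.3% and 66.7%, against 57.1% and 70.7% of all genes. The signal of 36 members, or 42.9%, averaged below 6.54, as did that of 24.8% of all genes, where probe sets also differ in how strongly they bind. By signal, 3 of those 36 members passed (8.33%, against 6.78% of all genes in that range), 7 of 35 between the quartile and the median of 9.30 (20% against 24.1%), and 5 of 13 above it (38.5% against 22.9%). These shares describe the members and were not tested.

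**Figure D3:**
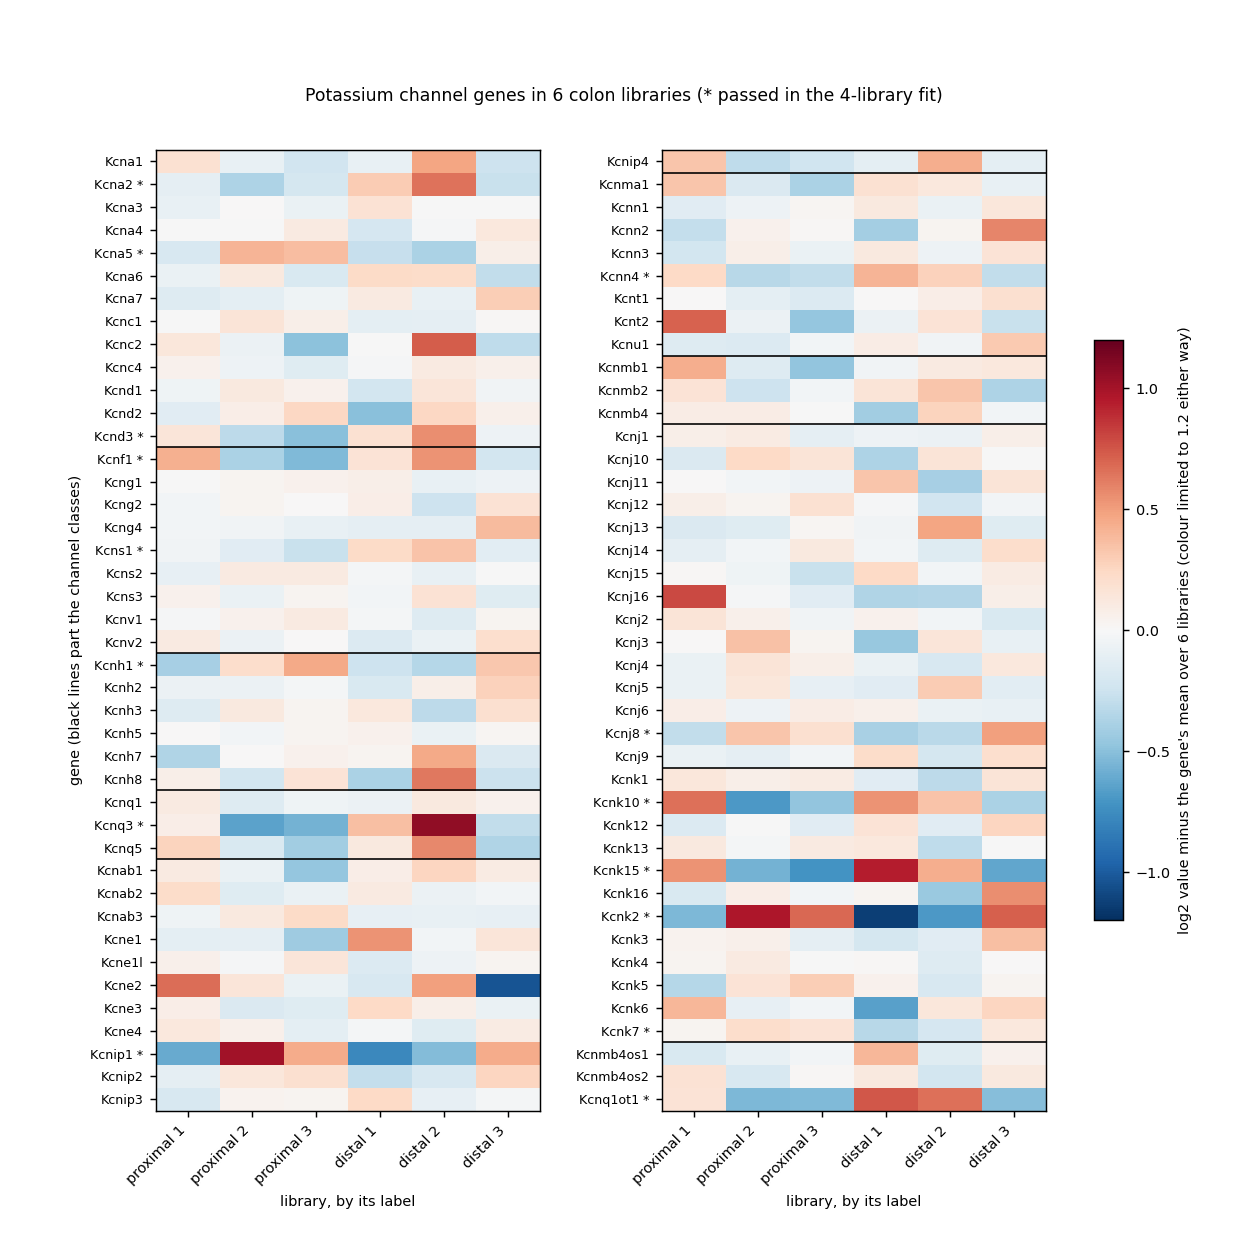
Log2 value of each of the 84 members in each library minus the member's mean over all 6, from blue (lower) to red (higher), with the colour limited to 1.2 either way. Black lines part the channel classes and asterisks mark the 15 members that passed in the 4-library fit. Most rows are pale, with a median range over the libraries of 0.53, and Kcnk2 has the widest range at 2.10.

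The promoters of members that passed are shown because they place the differing channels in their sequence context. RefSeq windows of GRCm38.p6, from 250 bases before to 50 bases after a start site, were on hand for 14 of the 15. The letters CAATAAA, to which colonic homeobox factors of the Cdx and posterior Hox type are known to bind, were sought on both strands, where the reverse reads TTTATTG. They occurred in 2 of 9 windows of members higher in the distal pair, in 1 of 11 windows of members higher in the proximal pair, in 5 of 89 windows of the family and in 4.6% of all 32851 windows. TATAAA, sought in the same way as TTTATA, occurred in 0 of the 20 windows of members that passed. It occurred in 5.62% of the member windows searched and in 13.6% of all windows searched. CG pairs per window had a median of 18 for the distal set (range 3 to 31) and 9 for the proximal set (range 3 to 33). The median was 9 for all member windows and 7 for all windows searched. The 9 distal windows came from 8 genes and the 11 proximal windows from 6, so some genes count more than once. These medians were not tested. A match here is only a run of letters. The windows below are the 3 that hold CAATAAA, in capitals, and those of Kcnk15, Kcnn4 and Kcnj8, which hold none and are shown for the roles given above.
Kcnf1 (chr12:17176839-17177138, minus strand): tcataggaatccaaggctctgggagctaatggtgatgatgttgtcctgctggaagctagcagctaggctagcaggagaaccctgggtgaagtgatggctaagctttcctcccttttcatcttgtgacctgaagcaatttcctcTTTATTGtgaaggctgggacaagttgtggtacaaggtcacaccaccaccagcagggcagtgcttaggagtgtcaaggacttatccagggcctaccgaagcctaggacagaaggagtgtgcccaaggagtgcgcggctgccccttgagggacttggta
Kcnq1ot1 (chr7:143296498-143296797, minus strand): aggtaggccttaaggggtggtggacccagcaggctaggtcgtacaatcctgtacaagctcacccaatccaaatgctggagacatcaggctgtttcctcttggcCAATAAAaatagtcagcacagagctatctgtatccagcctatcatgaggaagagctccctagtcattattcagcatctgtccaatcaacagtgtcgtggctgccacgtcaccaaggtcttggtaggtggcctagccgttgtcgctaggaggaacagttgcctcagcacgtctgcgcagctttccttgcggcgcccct
Kcnh1 (chr1:192190527-192190826, plus strand): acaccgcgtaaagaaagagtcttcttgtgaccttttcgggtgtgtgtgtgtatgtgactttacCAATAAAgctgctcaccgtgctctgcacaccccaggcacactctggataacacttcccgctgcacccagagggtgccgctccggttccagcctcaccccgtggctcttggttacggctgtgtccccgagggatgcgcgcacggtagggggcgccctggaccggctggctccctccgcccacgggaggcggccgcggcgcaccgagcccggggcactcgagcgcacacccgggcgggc
Kcnk15 (chr2:163853500-163853799, plus strand): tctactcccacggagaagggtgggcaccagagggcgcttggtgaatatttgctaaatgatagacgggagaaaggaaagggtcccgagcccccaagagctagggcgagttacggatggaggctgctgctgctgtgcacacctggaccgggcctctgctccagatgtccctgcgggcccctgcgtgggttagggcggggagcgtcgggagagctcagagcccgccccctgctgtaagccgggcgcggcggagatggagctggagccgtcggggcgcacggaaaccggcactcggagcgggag
Kcnn4 (chr7:24370013-24370312, plus strand): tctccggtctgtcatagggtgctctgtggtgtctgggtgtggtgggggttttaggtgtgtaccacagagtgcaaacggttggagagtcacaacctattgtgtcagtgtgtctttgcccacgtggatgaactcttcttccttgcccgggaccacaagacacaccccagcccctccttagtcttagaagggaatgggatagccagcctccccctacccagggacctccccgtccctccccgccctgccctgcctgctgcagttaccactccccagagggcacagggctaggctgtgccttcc
Kcnj8 (chr6:142571565-142571864, minus strand): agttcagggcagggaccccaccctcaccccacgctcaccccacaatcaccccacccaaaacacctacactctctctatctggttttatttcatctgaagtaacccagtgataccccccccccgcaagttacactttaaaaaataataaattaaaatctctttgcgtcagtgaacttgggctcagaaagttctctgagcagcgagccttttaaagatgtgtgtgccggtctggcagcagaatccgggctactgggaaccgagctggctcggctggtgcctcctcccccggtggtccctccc
The capitals begin at position -107 from the start site in Kcnf1, -147 in Kcnq1ot1 and -187 in Kcnh1.

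Partners and other potassium transporters were measured beside the channels. Of 30 genes in 4 such lists 23 were measured, with a median difference of 0.01. Of these, 2 were higher in the distal pair, 0 in the proximal pair and 21 did not pass. Of all genes, 7.71% passed as higher in the distal pair and 11.5% in the proximal pair. The proton-potassium pump Atp12a of the distal colon measured 13.11, 6.93 and 6.10 in proximal 1, 2 and 3 and 13.71, 13.35 and 7.25 in distal 1, 2 and 3. Its difference was 7.01 in the 4 libraries (SE 0.30, limma adjusted p = 0.000373) and 2.72 as labelled (SE 2.42, limma adjusted p = 0.824). The other was Akap9, a scaffold known to bind Kcnq1 in heart, at 0.90 (SE 0.11, limma adjusted p = 0.00637). Lrrc26, a partner of the Kcnma1 channel in secretory epithelia, did not pass (0.07, SE 0.12), nor did the sodium-potassium-chloride cotransporter Slc12a2 (0.30, SE 0.12) or the sodium pump subunit Atp1b1 (0.13, SE 0.11), which supply the potassium that these channels release.

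Some markers of the cells that can hold these channels also passed, where 19.2% of all genes did. Of 8 smooth muscle markers 2 passed as higher in the distal pair, Des (0.62, SE 0.14) and Synm (0.97, SE 0.15), and the list averaged 12.95 and 12.76 in proximal 2 and 3 and 13.25 and 13.34 in distal 1 and 2. Of 7 enteric neuron markers Snap25 passed (1.14, SE 0.20), and the list averaged 9.28 and 9.02 in proximal 2 and 3 and 9.45 and 9.72 in distal 1 and 2. Ano1, a chloride channel of pacemaker cells and epithelium, was the 1 of 3 pacemaker markers that passed (1.70, SE 0.11). Of 9 epithelial markers 3 were higher in the proximal pair, and of 5 T cell and macrophage markers 3 were. Cidec passed among 2 measured adipocyte markers (-2.67, SE 0.34), and 0 of 3 glial markers passed. The part of these markers in the channel differences was not tested. In proximal 1 and distal 3, which go against their labels, the muscle list averaged 13.21 and 13.22 and the neuron list 9.59 and 9.23.

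**Figure D4:**
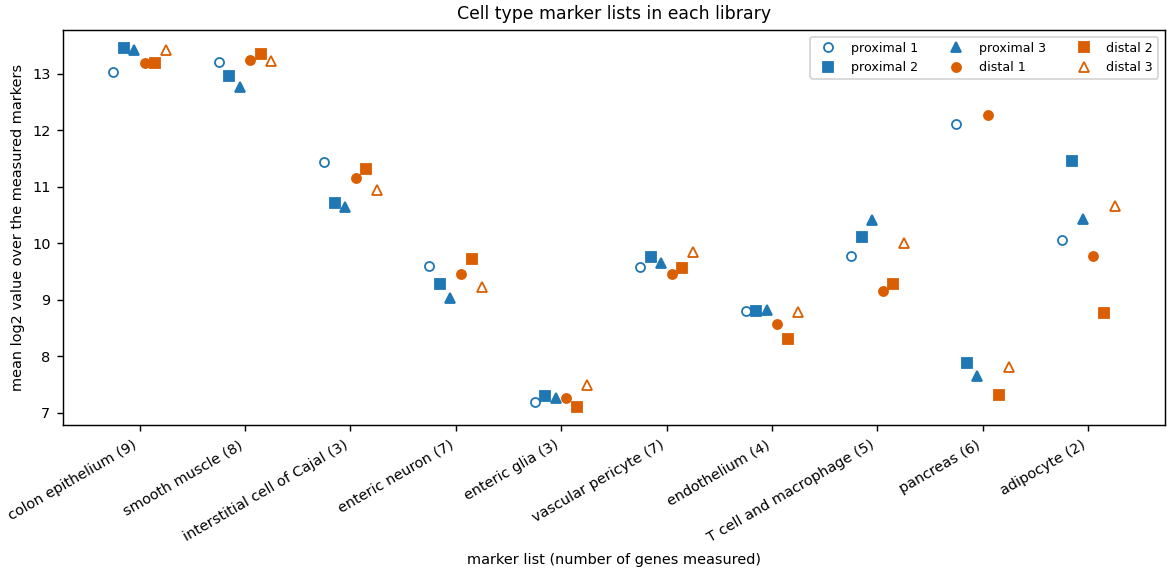
Mean log2 value over the measured genes of each marker list (horizontal axis, number of genes in brackets) in each of the 6 libraries, proximal in blue and distal in orange, with open symbols for proximal 1 and distal 3. Proximal 1 and distal 1 stand apart on the pancreas list at 12.10 and 12.27, and the other lists lie closer together except the adipocyte list, which rests on 2 genes.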

How the data were processed

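Total RNA from proximal and distal colon of the 6 libraries was amplified with NuGEN Ovation kits and labelled with biotin, per the labels' protocols. The authors deposited log2 expression values per probe set, made with RMA in Partek 6.5, per the submitters' processing notes. RMA forces similar distributions on the arrays, which would hide a change common to most genes. Precision is limited by having 6 arrays.

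Of 45101 probe sets 64 controls were left out, and 34945 with 1 gene symbol gave 18193 genes, each represented by its brightest probe set on average. Gene names came from the platform annotation, updated for 34741 probe sets through a RefSeq table of GRCm38.p6. Among the 84 members, 46 were read by several probe sets, which disagreed in direction for 15. Signals of different probe sets are not comparable as levels, so differences are taken only within a probe set, and the quartiles of the signal serve only to mark the range near background.

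The regions were tested by limma (version 3.58.1, under R 4.3.3; lmFit, then eBayes, two-sided, p-values adjusted by Benjamini-Hochberg across 18193 genes, threshold 0.05), without a block for the number. Every limma p-value rests on the spread between these libraries. The calculation was tested on simulated data. Members named are those that passed in the 4 libraries, the 10 with the highest mean, the 5 with the smallest p as labelled, and 15 with a textbook role in colon. Added to these were Kcna1, Kcng1 and Kcnq5, which passed only on a probe set other than the brightest. Kcnk4, Kcnn1, Kcnn2, Kcnn3, Kcnab3 and Kcnj12 were needed to describe a class. These added members, and the genes outside the family that did not pass, were picked with their values in view. The members, gene lists and the set of 4 libraries were chosen with earlier results of these data known. The alternatives were quantile normalization, median centring, leaving out dim genes, averaging a gene's probe sets, each probe set on its own, a trended and robust prior, array weights, a replicate block, omitting each library in turn, and an adjusted p of 0.01.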

Additional observations from a re-analysis of the deposited data

How the results depend on the processing

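As labelled, limma called 0 genes in the whole table and 0 members under every alternative except array weights, which gave 5579 genes and 21 members, and leaving out proximal 1 and distal 3, which gave 3494 genes and 15 members. The weights were 0.322, 6.72 and 1.57 for proximal 1, 2 and 3 and 2.5, 0.403 and 0.291 for distal 1, 2 and 3. With the replicate block it called 0 genes, with 1065 at an unadjusted p of 0.05, of which 1 was a member. Deviations from the group means of proximal and distal libraries of the same number correlated at 0.68, -0.45 and 0.68, and those of distal 3 with proximal 2 at 0.73 and with proximal 1 at -0.77. The libraries that go against their labels enter these values, so whether equal numbers mark 1 animal could not be told, and no pairing was used. In the 4 libraries no paired fit can be made, as the pairs share 1 number. There the genes called were 5381 with each probe set on its own and 1112 at an adjusted p of 0.01, and from 146 to 1633 with 1 library left out. The members called were 6 of 11 tested with dim genes left out (3263 of 9103 genes), 3 at an adjusted p of 0.01 (Kcnk10, Kcnk2 and Kcnq1ot1), and from 0 to 3 with 1 library left out, where 1 residual degree of freedom remains and the lone library is assumed to vary like the other pair. The members called with 1 library left out are named above beside the counts for all genes. As 1 group then holds a lone library, those counts are not weighed further. On the brightest probe set, or the mean of probe sets, the direction of each of the 15 called members stayed the same under every alternative run in the 4 libraries. A dimmer probe set of Kcnq3 and one of Kcna2 ran the other way (-0.44 and -0.13). Quantile normalization and median centring each called 16 members, 14 of them shared with the 15. The split of all called genes, 1402 higher in distal and 2092 in proximal libraries as deposited, became 1733 and 1717 after quantile normalization and 1883 and 1557 after median centring, and that of the members changed from 9 and 6 to 11 and 5 under both. Among members that did not pass, the difference changed sign for Kcnh2 (0.08 after quantile normalization and 0.08 after median centring, and from -0.14 to 0.12 with 1 library left out), Kcne2 (from -0.23 to 0.46), Kcnj11 (from -0.35 to 0.38) and Kcnk6 (from -0.59 to 0.20). The cause was not tested. Signals near background limit what can be said of the dim members. For 7 of the 15 called members the mean of the lower pair was under 6.54, against 511 of the 3494 called genes. These were Kcnk2, Kcnk10, Kcnk15, Kcnq3, Kcna5, Kcnh1 and Kcns1. Among all 84 members it was 42, and among all 18193 genes 4877.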
